A study of Mus musculus with 9 samples.

Results

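The transcripts described here are those of 8 receptors of the tumour necrosis factor (TNF) receptor superfamily in mouse liver: Tnfrsf12a, Tnfrsf1b, Ltbr, Cd40, Tnfrsf1a, Fas, Tnfrsf10b and Tnfrsf21. They were chosen by gene name out of 21936 genes in the expression table, with their read counts in all 9 libraries in view. Those counts are therefore described. Where a fit over all genes called a receptor, the call is part of that description and not an independent test. Poly(A) RNA was sequenced from livers of wild-type (WT) mice 2 h after an intraperitoneal injection of retrorsine at 25 mg/kg, of retrorsine at 50 mg/kg or of NaCl, with 3 libraries in each group. Retrorsine is a pyrrolizidine alkaloid, a plant toxin that liver enzymes turn into reactive products. WT is the only genotype in the 3 groups, and the sources used here do not give strain, sex or age of the mice. The study concerns the toxicity of retrorsine to liver cells, and its title names the transcription factor ATF3 and ferroptosis, a form of cell death that depends on iron.

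Receptors of this superfamily sit in the cell membrane, bind trimeric ligands and pass the signal on through adaptor proteins. Tnfrsf12a (also called Fn14, the receptor for the cytokine TWEAK), Tnfrsf1b (TNF receptor 2), Ltbr (the lymphotoxin beta receptor) and Cd40 bind TRAF adaptors, which lead to NF-kB and MAP kinases. Tnfrsf1a (TNF receptor 1), Fas, Tnfrsf10b (the mouse receptor for TRAIL) and Tnfrsf21 (death receptor 6) carry a death domain, through which cell death can be started. In the liver, Fas and Tnfrsf1a are known for hepatocyte death, and Tnfrsf12a is known as a gene induced by growth factors and injury.

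Total counts per library lay between 15241261 and 18691736. The labels number the samples of a group without stating separate mice, so p-values here cover only the spread among these samples, which may be technical. The 8 hepatocyte markers summed to between 115633 and 154360 CPM (read counts scaled to the size of the library) in every library. Alb alone held 92362 to 126827 CPM, so this sum says little of the other markers. Of the 8, edgeR called 0 at either dose. Cps1 lay lower in every retrorsine library than in every NaCl library (log2 fold change -0.40 after 25 mg/kg and -0.84 after 50 mg/kg). Ttr lay higher in every 25 mg/kg library than in every NaCl library. Some libraries stood apart. The 12 pancreatic acinar markers summed to 5509, 822 and 227 CPM in NaCl replicates 1, 2 and 3 and to 321 CPM in 50 mg/kg replicate 2. In the other retrorsine libraries they summed to 10.3 to 18.2 CPM. For all 11 acinar markers that passed the filter on low counts, every 25 mg/kg library lay below every NaCl library. After 50 mg/kg this held for 0 of the 11. The NaCl and 25 mg/kg groups thus differed in acinar transcripts, and the part of this in the receptor values was not tested. The 8 neutrophil and monocyte markers summed to 206 CPM in 50 mg/kg replicate 3, against 8.91 to 34.7 CPM in the others. NaCl replicate 2 held 158 CPM of the 8 cholangiocyte markers, against 43.0 to 69.6 CPM in the others. It also held 642 CPM of the 8 stellate cell and fibroblast markers, against 201 to 354 CPM in the others. No gene of these marker lists was at 0 in all libraries. For the receptors that these libraries moved most, values without them are given below.

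Because the receptors were chosen with their counts known, their differences are given as a description with a standard error (SE) and without p-values. Levels are in CPM after TMM scaling, and log2 fold changes come from an edgeR fit over 12557 genes. A gene was called changed at a Benjamini-Hochberg adjusted p under 0.05 over all of these genes. All 8 receptors passed the filter on low counts. After 25 mg/kg, 13.5% of all genes tested were called (5.90% higher and 7.56% lower), and 2 of the 8 receptors were among them, Tnfrsf12a higher and Ltbr lower. After 50 mg/kg, 15.1% of all genes were called (7.09% higher and 8.01% lower), and 3 of the 8 receptors were among them, Tnfrsf12a and Tnfrsf1b higher and Ltbr lower. Groups that do not overlap were found for 36.5% of all genes after 25 mg/kg and for 35.0% after 50 mg/kg, and for Tnfrsf12a, Tnfrsf1b and Ltbr at each dose. Both comparisons use the same NaCl libraries, and nothing is read from these counts, since the choice of the receptors used the same values. The median log2 fold change over the 8 receptors was -0.09 after 25 mg/kg and 0.20 after 50 mg/kg, beside 0.01 and 0.00 over all genes tested.

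**Figure D1:**
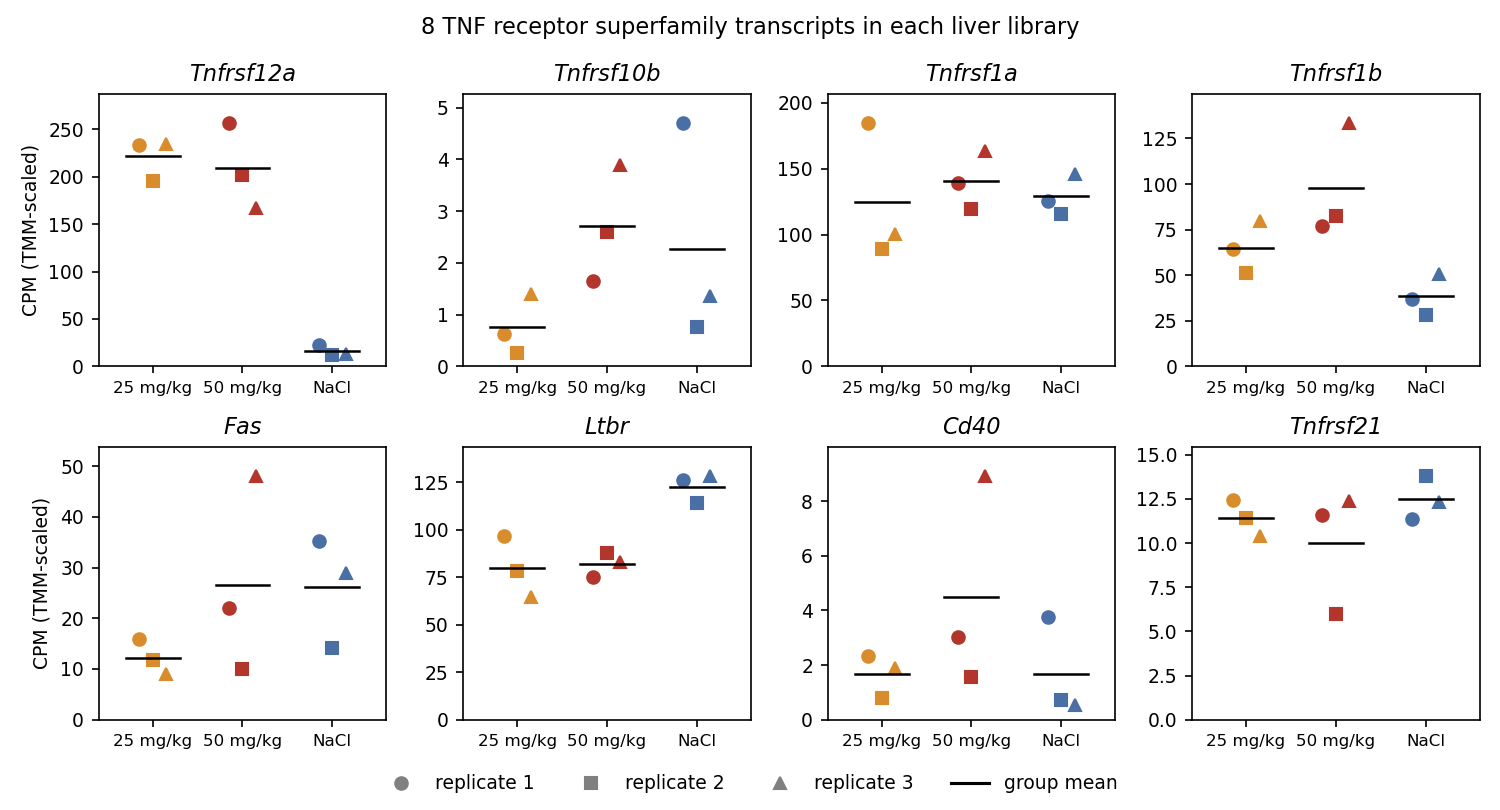
Levels of the 8 receptor transcripts in CPM (vertical axis, starting at 0, a scale for each gene) in each liver library after 25 mg/kg retrorsine, 50 mg/kg retrorsine or NaCl. Markers stand for replicates and lines for group means. The 6 retrorsine libraries lie between 167 and 257 CPM for Tnfrsf12a and the 3 NaCl libraries between 12.2 and 22.1 CPM.

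The start regions of the 3 receptors named above are shown because they are where the differing transcripts begin. The sequences are RefSeq promoters of GRCm38.p6, from 250 bases before to 50 bases after the annotated start, written in the direction of transcription. They lie on the minus strand at chr17:23677400-23677699 (Tnfrsf12a), chr4:145246821-145247120 (Tnfrsf1b) and chr6:125313836-125314135 (Ltbr). Capitals mark matches to the short motifs spelled out in the next paragraph.
Tnfrsf12a: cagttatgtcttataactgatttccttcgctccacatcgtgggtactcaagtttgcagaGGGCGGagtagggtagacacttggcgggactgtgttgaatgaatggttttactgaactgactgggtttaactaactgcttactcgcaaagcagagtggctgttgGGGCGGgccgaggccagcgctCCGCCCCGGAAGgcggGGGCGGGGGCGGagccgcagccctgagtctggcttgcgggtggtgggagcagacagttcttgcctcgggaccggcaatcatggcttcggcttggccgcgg
Tnfrsf1b: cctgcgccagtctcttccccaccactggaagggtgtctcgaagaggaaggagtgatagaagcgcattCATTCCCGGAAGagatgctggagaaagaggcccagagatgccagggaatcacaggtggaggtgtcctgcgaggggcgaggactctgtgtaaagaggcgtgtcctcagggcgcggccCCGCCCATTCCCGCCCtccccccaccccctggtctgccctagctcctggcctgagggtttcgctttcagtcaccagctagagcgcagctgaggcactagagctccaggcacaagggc
Ltbr: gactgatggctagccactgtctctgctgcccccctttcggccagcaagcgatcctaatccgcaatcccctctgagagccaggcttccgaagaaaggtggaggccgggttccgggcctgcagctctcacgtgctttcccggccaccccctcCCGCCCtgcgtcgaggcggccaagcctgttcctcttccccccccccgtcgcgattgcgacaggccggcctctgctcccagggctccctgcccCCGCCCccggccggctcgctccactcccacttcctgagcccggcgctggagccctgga

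Windows of this kind were found for 6 of the 8 receptors, all but Tnfrsf10b and Cd40, and 10 motifs were searched on both strands. The Tnfrsf12a window held 5 matches to the Sp1 letters GGGCGG, at -191, -87, -66, -50 and -44 from the start, of which that at -66 is on the opposite strand as CCGCCC. Among all 32851 promoters of the table, 2.71% held at least as many, a share worked out for this gene and motif only. CG pairs in the windows numbered 20 for Tnfrsf12a, 23 for Ltbr, 17 for Tnfrsf21, 14 for Fas, 13 for Tnfrsf1b and 11 for Tnfrsf1a. The median over all promoters was 7. The Tnfrsf12a window also held the ETS letters CCGGAAG at -61, which share 1 base with the Sp1 match at -66. The Tnfrsf1b window held the ETS letters at -178 and, on the opposite strand, 2 Sp1 matches, at -67 and -57. It also held 2 matches to the TEAD letters GGAATG on the opposite strand, at -183 and -62, and neighbouring matches in it share a base. The Ltbr window held 2 Sp1 matches, at -100 and -8, both on the opposite strand. The Sp1 letters are found in 35.7% of all promoters, the ETS letters in 8.86% and the TEAD letters in 14.7%. G and C made up 59.7% of the Tnfrsf12a window, 62.7% of the Tnfrsf1b window and 70% of the Ltbr window, and the median over all promoters was 52.7%.

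In the other windows, Fas held the AP-1 letters TGACTCA on the opposite strand at -211 and Sp1 matches at -47 and, on the opposite strand, at 29. Tnfrsf1a held the ETS letters at -10 and Tnfrsf21 an Sp1 match at -23, both on the opposite strand. The AP-1 letters are found in 5.2% of all promoters. The letters TGACGTCA (CRE, in 1.79% of all promoters), TGACGCA (CRE-like, 2.12%), GGACTTTCC (NF-kB, 0.344%), GGAANTTCC (NF-kB-like, 0.928%), TATAAA (the core promoter box, 13.6%) and TGACNNNGC (antioxidant response element, 12.4%) were in none of the 6 windows. A missing match says only that these letters are not in this window.

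Tnfrsf12a had much higher levels in the livers of both retrorsine groups. It lies on chromosome 17 at 23675445 to 23677468 of GRCm38, minus strand (ENSMUSG00000023905). Its span of 2024 bases holds 4 annotated exons, and 2.17% of the genes tested have a shorter span. Its level was 234, 196 and 235 CPM after 25 mg/kg, 257, 202 and 167 CPM after 50 mg/kg and 22.1, 12.2 and 13.0 CPM after NaCl. Every retrorsine library lay far above every NaCl library, and the highest of the 9 libraries held 21 times the level of the lowest. The means were 221 ± 22.2 CPM after 25 mg/kg, 209 ± 45.2 CPM after 50 mg/kg and 15.8 ± 5.46 CPM after NaCl (SD, n = 3 each).

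The log2 fold change of Tnfrsf12a was 3.81 (SE 0.27, 14.1-fold) after 25 mg/kg and 3.73 (SE 0.27, 13.3-fold) after 50 mg/kg. Among 11633 genes with a mean of at least 1 CPM, it held rank 26 by log2 fold change after 25 mg/kg and rank 40 after 50 mg/kg. The lowest and highest log2 fold changes over 20 alternative settings were 3.66 and 4.13 after 25 mg/kg and 3.56 and 4.18 after 50 mg/kg. The value of 3.66 came from the fit without NaCl replicate 2. NaCl replicate 1, the library richest in acinar transcripts, was also the NaCl library with the most Tnfrsf12a, and without it the log2 fold changes were 4.13 after 25 mg/kg and 4.05 after 50 mg/kg. In such bulk RNA, a change in the number of cells of a type and a change in RNA per cell cannot be told apart, here and for each transcript below.

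**Figure D2:**
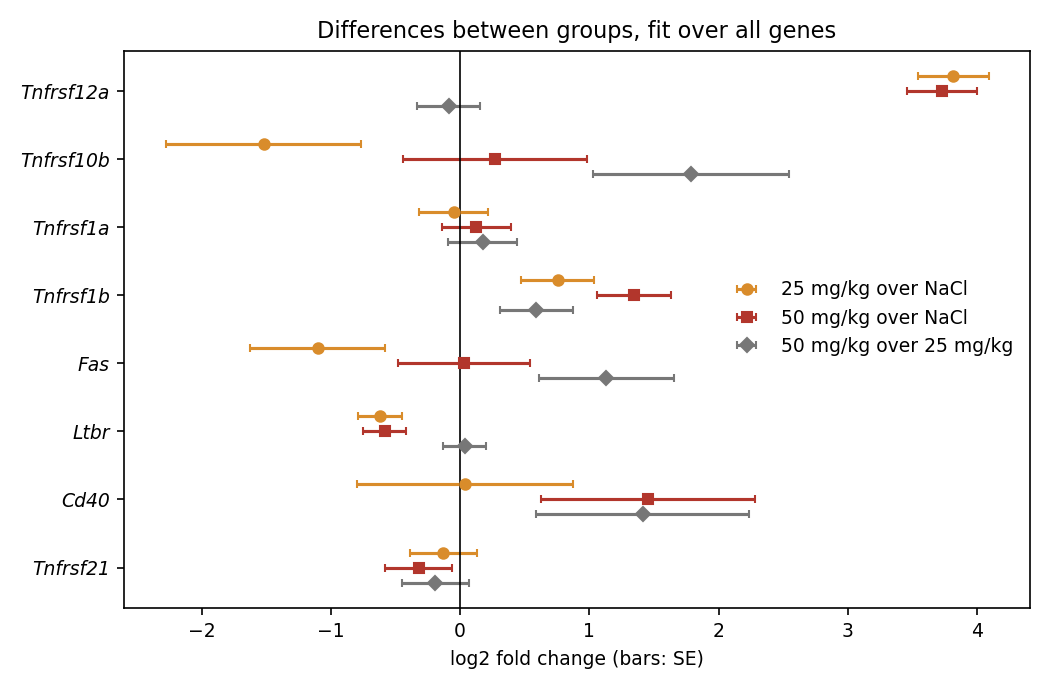
Log2 fold changes (horizontal axis) of the 8 receptors from the fit over all genes, in each of the 3 comparisons between groups. Points are estimates and bars are SE. Tnfrsf12a stands at 3.81 after 25 mg/kg and 3.73 after 50 mg/kg, each against NaCl, and the next highest point is Cd40, 1.45 after 50 mg/kg, apart from Tnfrsf10b at 1.79 between the doses.

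Among the other receptors that bind TRAF adaptors, Tnfrsf1b was higher and Ltbr lower in all retrorsine libraries than in all NaCl libraries. Tnfrsf1b (chromosome 4, 145213463 to 145246870, minus strand, 10 exons, ENSMUSG00000028599) binds TNF and is known from immune and endothelial cells. It had 64.6, 51.0 and 79.5 CPM after 25 mg/kg, 77.2, 82.7 and 134 CPM after 50 mg/kg and 37.0, 28.0 and 50.6 CPM after NaCl. The groups did not overlap, though the lowest 25 mg/kg library and the highest NaCl library lay close together. Groups that do not overlap in the higher direction were found for 17.7% of all genes tested after 25 mg/kg and for 16.6% after 50 mg/kg.

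The means of Tnfrsf1b were 65.0 ± 14.3 CPM after 25 mg/kg, 97.8 ± 31.1 CPM after 50 mg/kg and 38.5 ± 11.4 CPM after NaCl (SD, n = 3 each). Its log2 fold change was 0.76 (SE 0.28) after 25 mg/kg and 1.34 (SE 0.29, 2.54-fold) after 50 mg/kg. Without NaCl replicate 2 the value after 25 mg/kg was 0.57. The highest of the 9 values came from 50 mg/kg replicate 3, the library with the high neutrophil and monocyte markers, and without that library the log2 fold change after 50 mg/kg was 1.05. Without NaCl replicate 1 as well it was 1.03 and no longer past the threshold, as was the value of 1.43 without NaCl replicate 1 and 50 mg/kg replicate 2. Kupffer cell and macrophage markers (8 genes, 1 of them higher after each dose) summed to 426, 310 and 374 CPM after 25 mg/kg, 460, 202 and 321 CPM after 50 mg/kg and 288, 244 and 341 CPM after NaCl. B and T cell markers (8 genes, 4 tested, 0 called after 25 mg/kg by edgeR with 1 at an unadjusted p under 0.05, and 2 higher after 50 mg/kg) summed to 2.67, 6.12 and 6.01 CPM after 25 mg/kg, 10.6, 38.7 and 7.02 CPM after 50 mg/kg and 2.08, 1.57 and 2.26 CPM after NaCl. Their part in the Tnfrsf1b values was not tested.

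Ltbr (chromosome 6, 125306571 to 125313885, minus strand, 10 exons, ENSMUSG00000030339), which binds lymphotoxin and LIGHT, had 97.0, 78.2 and 64.9 CPM after 25 mg/kg, 75.3, 87.7 and 82.9 CPM after 50 mg/kg and 126, 114 and 128 CPM after NaCl. All 6 retrorsine libraries lay below all 3 NaCl libraries. Groups that do not overlap in the lower direction were found for 18.8% of all genes after 25 mg/kg and 18.5% after 50 mg/kg. Its log2 fold change was -0.62 (SE 0.17) after 25 mg/kg and -0.58 (SE 0.17) after 50 mg/kg, which is 0.651 and 0.667 of the NaCl level. Both calls were lost without any 1 of the NaCl libraries or without 25 mg/kg replicate 2, that after 25 mg/kg also without 25 mg/kg replicate 3, and that after 50 mg/kg also without any 1 of the 50 mg/kg libraries. The log2 fold changes over all 20 alternatives stayed between -0.78 and -0.49 after 25 mg/kg and between -0.67 and -0.52 after 50 mg/kg.

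Cd40 (chromosome 2, 165055627 to 165072948, plus strand, 9 exons, ENSMUSG00000017652), a receptor of B cells, macrophages and endothelium, rested on few reads. It had 41, 12 and 35 counts after 25 mg/kg, 50, 24 and 131 counts after 50 mg/kg and 56, 14 and 11 counts after NaCl. In CPM these were 2.33, 0.80 and 1.90 after 25 mg/kg, 3.04, 1.56 and 8.93 after 50 mg/kg and 3.76, 0.71 and 0.55 after NaCl. The groups overlapped at both doses. For Cd40 the log2 fold change was 0.04 (SE 0.83) after 25 mg/kg and 1.45 (SE 0.83) after 50 mg/kg, both set largely by a few libraries. Leaving out NaCl replicate 1 gave 1.41 after 25 mg/kg and 2.82 after 50 mg/kg, and without 50 mg/kg replicate 3 the value after 50 mg/kg was 0.49. Without NaCl replicate 1 and 50 mg/kg replicate 2, the libraries richest in acinar transcripts in their groups, it was 3.23 and past the threshold. Cd40 was called after 50 mg/kg in only this 1 of the 20 alternatives, and not in the main fit. 50 mg/kg replicate 3 and NaCl replicate 1 also held the highest sums of neutrophil and monocyte markers in all 9, 206 CPM and 34.7 CPM, and the part of those cells in the Cd40 values was not tested.

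The receptors with a death domain overlapped between retrorsine and NaCl libraries at both doses. Tnfrsf1a (chromosome 6, 125349362 to 125362484, plus strand, 10 exons, ENSMUSG00000030341), the main receptor for TNF on hepatocytes, had 185, 89.1 and 100.3 CPM after 25 mg/kg, 139, 119.6 and 164 CPM after 50 mg/kg and 126, 116 and 146 CPM after NaCl. The 3 groups overlapped, and the widest spread was that after 25 mg/kg. Its log2 fold change was -0.05 (SE 0.26) after 25 mg/kg and 0.13 (SE 0.26) after 50 mg/kg, smaller than its SE at both doses. Tnfrsf1a and Ltbr lie near each other on the same chromosome, on opposite strands.

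Fas (chromosome 19, 34290666 to 34327772, plus strand, 9 exons, ENSMUSG00000024778), the receptor for Fas ligand, had 15.8, 11.7 and 8.93 CPM after 25 mg/kg, 21.9, 9.94 and 48.0 CPM after 50 mg/kg and 35.2, 14.1 and 28.9 CPM after NaCl. After 25 mg/kg only replicate 1 reached the range of the NaCl libraries, while the 50 mg/kg libraries spread over and beyond it. The log2 fold change was -1.10 (SE 0.52) after 25 mg/kg and 0.03 (SE 0.51) after 50 mg/kg. Without 50 mg/kg replicate 3, which held the highest Fas level of all 9 libraries, the value after 50 mg/kg was -0.71, and without NaCl replicate 1 and 50 mg/kg replicate 2 it was 0.70, so its direction depended on the libraries used. The value after 25 mg/kg was -0.82 without NaCl replicate 1 and -1.40 without NaCl replicate 2. Neutrophil and monocyte markers were highest in 50 mg/kg replicate 3 and NaCl replicate 1 too, and their part in the Fas values was not tested.

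Tnfrsf10b (chromosome 14, 69767472 to 69784411, plus strand, 8 exons, ENSMUSG00000022074) had 11, 4 and 26 counts after 25 mg/kg, 27, 40 and 57 counts after 50 mg/kg and 70, 15 and 27 counts after NaCl. In CPM these were 0.63, 0.27 and 1.41 after 25 mg/kg, 1.64, 2.60 and 3.88 after 50 mg/kg and 4.71, 0.76 and 1.36 after NaCl. The highest value came from an NaCl library, and both retrorsine groups overlapped the NaCl range. Its log2 fold change was -1.52 (SE 0.76) after 25 mg/kg and 0.27 (SE 0.71) after 50 mg/kg. Without NaCl replicate 1 these were -0.44 after 25 mg/kg and 1.35 after 50 mg/kg, so that 1 library set much of either value. Without 50 mg/kg replicate 3 the value after 50 mg/kg was -0.09, and without NaCl replicate 2 it was -0.16.

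Tnfrsf21 (chromosome 17, 43016555 to 43089189, plus strand, 6 exons, ENSMUSG00000023915) had 12.4, 11.4 and 10.4 CPM after 25 mg/kg, 11.6, 5.98 and 12.4 CPM after 50 mg/kg and 11.4, 13.8 and 12.3 CPM after NaCl. All but 50 mg/kg replicate 2 lay close together. For Tnfrsf21 the log2 fold change was -0.13 (SE 0.26) after 25 mg/kg and -0.32 (SE 0.26) after 50 mg/kg. Without 50 mg/kg replicate 2 the value after 50 mg/kg was -0.06. The highest library held 2.31 times the level of the lowest, against 2.07 times for Tnfrsf1a, 1.98 times for Ltbr, 5.38 times for Fas, 16.2 times for Cd40 and 17.7 times for Tnfrsf10b.

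Between the doses, 1 gene of the 12557 tested was called, which is 0.00796%, and it was not among the 8 receptors. Tnfrsf10b was the only receptor whose dose groups did not overlap. Its 50 mg/kg libraries (1.64, 2.60 and 3.88 CPM) all lay above its 25 mg/kg libraries (0.63, 0.27 and 1.41 CPM), with a log2 fold change of 1.79 (SE 0.76). In this comparison 11.4% of all genes had groups that do not overlap, 5.38% in the higher direction. Tnfrsf12a differed by -0.09 (SE 0.24) between 50 mg/kg and 25 mg/kg, Ltbr by 0.03 (SE 0.17) and Tnfrsf1b by 0.59 (SE 0.28), all on the log2 scale. For Fas the difference was 1.13 (SE 0.52) and for Cd40 it was 1.41 (SE 0.82), each with the highest value in 50 mg/kg replicate 3. Without that library the differences were 0.39 for Fas, 0.45 for Cd40 and 0.30 for Tnfrsf1b.

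Levels of different genes can be compared only per length, for which the deposited FPKM (fragments per kilobase of transcript, scaled to the reads of the library) were used. Tnfrsf12a averaged 117 ± 15.2 FPKM after 25 mg/kg, 105 ± 27.0 FPKM after 50 mg/kg and 8.17 ± 2.09 FPKM after NaCl (SD, n = 3 each). It thus stood at place 1 of the 8 receptors after each dose and at place 5 after NaCl. Its lowest retrorsine library (78.5 FPKM) lay above the highest Tnfrsf1a value within either dose, 71.5 FPKM after 25 mg/kg and 57.3 FPKM after 50 mg/kg.

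Tnfrsf1a averaged 48.9 ± 19.9 FPKM after 25 mg/kg, 52.2 ± 5.96 FPKM after 50 mg/kg and 50.9 ± 8.04 FPKM after NaCl, at place 2 in each group. Ltbr averaged 34.5 ± 6.17 FPKM after 25 mg/kg, 33.5 ± 2.85 FPKM after 50 mg/kg and 53.2 ± 4.40 FPKM after NaCl, at place 3 after either dose and place 1 after NaCl. The ranges of Tnfrsf1a and Ltbr overlapped after 25 mg/kg and after NaCl. Tnfrsf1b averaged 17.5 ± 4.53 FPKM after 25 mg/kg, 24.4 ± 6.37 FPKM after 50 mg/kg and 10.3 ± 3.34 FPKM after NaCl. Fas averaged 5.97 ± 1.57 FPKM after 25 mg/kg, 12.2 ± 8.30 FPKM after 50 mg/kg and 12.7 ± 4.66 FPKM after NaCl. After NaCl, Fas, Tnfrsf1b and Tnfrsf12a overlapped as neighbours in the order, and after 50 mg/kg Tnfrsf1b and Fas did, as did Tnfrsf21 and Cd40. Tnfrsf21, Cd40 and Tnfrsf10b were the 3 lowest in every group, with means of 3.11 FPKM or less, and Cd40 and Tnfrsf10b overlapped in each group.

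Over the 28 receptors of the superfamily in the table, the FPKM summed to 278, 201 and 248 after 25 mg/kg, to 275, 224 and 254 after 50 mg/kg and to 150.4, 143 and 172 after NaCl. The retrorsine libraries all lay above the NaCl libraries in this sum. Tnfrsf12a made up 43.6%, 49.6% and 52.1% of it after 25 mg/kg, 48.1%, 46.1% and 30.8% after 50 mg/kg and 7.03%, 4.74% and 4.17% after NaCl. The 8 receptors together made up between 87.9% and 95.6% in every library.

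**Figure D3:**
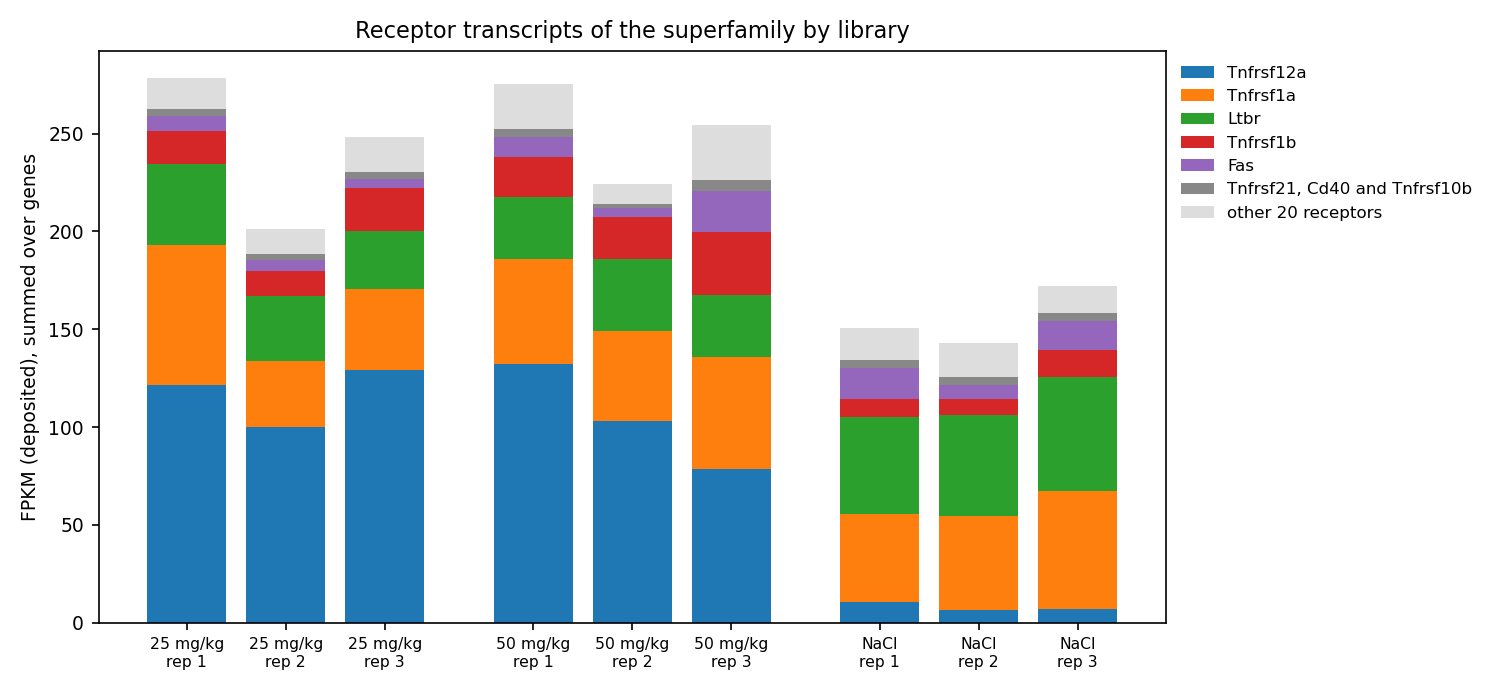
Deposited FPKM summed over the 28 receptors of the superfamily (vertical axis) in each library, stacked by gene, after 25 mg/kg retrorsine, 50 mg/kg retrorsine and NaCl. Tnfrsf12a makes up 30.8% to 52.1% of a retrorsine library's bar and 4.17% to 7.03% of an NaCl library's bar.

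The other genes of the pathway were taken from 5 lists of 90 genes in all, of which 71 could be tested. The lists were chosen with earlier results of these data known, so their calls are not independent tests. After 25 mg/kg, 4 rose and 1 fell, or 7.04% of those tested, against 13.5% of all genes. After 50 mg/kg, 2 rose and 0 fell by edgeR, or 2.82%, against 15.1% of all genes. At an unadjusted p under 0.05 there were 11 genes after 25 mg/kg and 13 after 50 mg/kg. The share called was thus not above that of all genes at either dose. Between the doses 0 of the 71 were called by edgeR, DESeq2 or limma-voom, with 11 at an unadjusted p under 0.05. The median log2 fold change of the 71 was -0.26 after 25 mg/kg and 0.31 after 50 mg/kg.

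**Figure D4:**
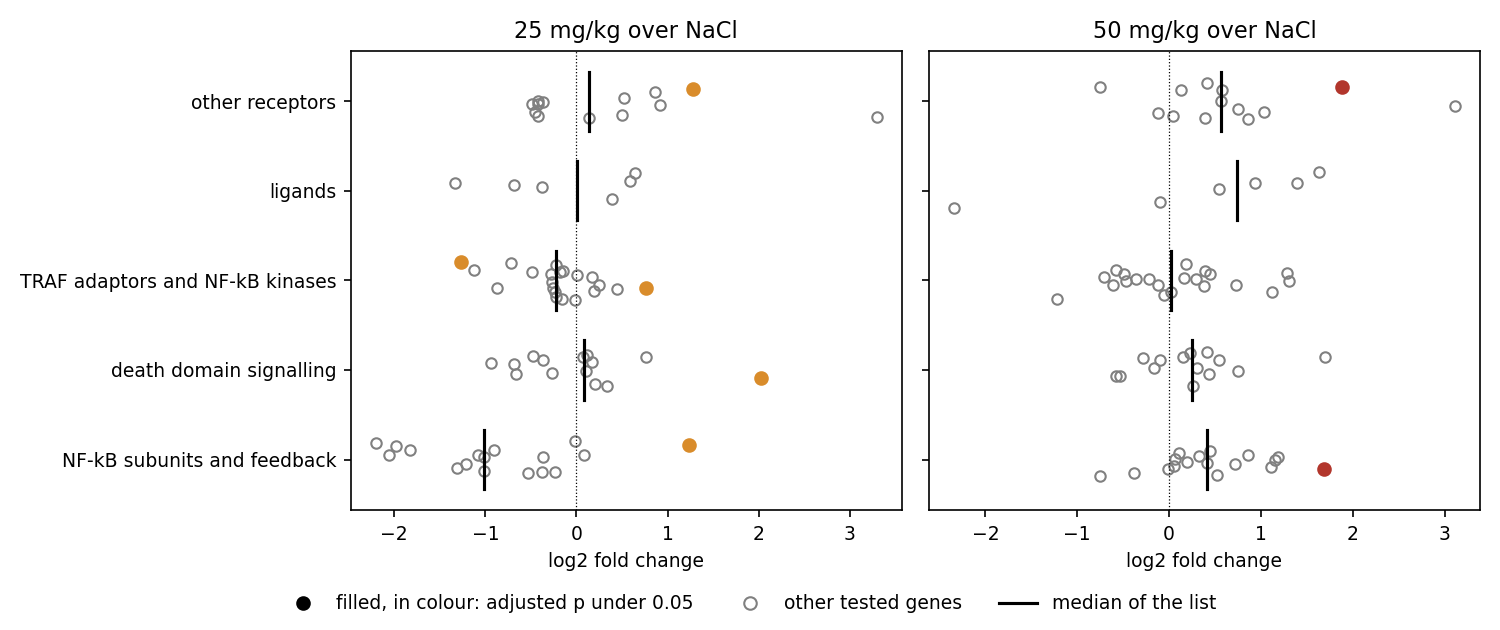
Log2 fold changes (horizontal axis) of the tested genes of the 5 pathway lists (rows) after 25 mg/kg and after 50 mg/kg, each against NaCl. Filled points in colour are genes past an adjusted p of 0.05, of which there are 5 after 25 mg/kg and 2 after 50 mg/kg, open points the other tested genes, and lines the median of each list.

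Tnfsf12, which encodes TWEAK, the ligand of Tnfrsf12a, had few counts in every library. It had 6, 4 and 9 counts after 25 mg/kg, 12, 8 and 9 counts after 50 mg/kg and 9, 10 and 8 counts after NaCl, and did not pass the filter. Both retrorsine groups overlapped the NaCl range in CPM, while the 50 mg/kg libraries (0.73, 0.52 and 0.61 CPM) lay above the 25 mg/kg libraries (0.34, 0.27 and 0.49 CPM). A read-through gene of the same locus and strand, Tnfsfm13, which covers the whole span of Tnfsf12, had 0 to 3 counts. How reads shared by both genes were counted is not stated, so the low counts of Tnfsf12 are uncertain. Of the 18 ligand genes, 6 could be tested and 0 were called after 25 mg/kg by edgeR, DESeq2 or limma-voom, with 0 at an unadjusted p under 0.05. After 50 mg/kg edgeR also called 0, with 2 at an unadjusted p under 0.05, whereas DESeq2 and limma-voom called 1, lower.

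That ligand was Eda, ectodysplasin A, which rested on few reads. It had 3, 11 and 6 counts after 25 mg/kg, 2, 1 and 6 after 50 mg/kg and 10, 20 and 27 after NaCl. In CPM these were 0.17, 0.73 and 0.32 after 25 mg/kg, 0.12, 0.06 and 0.41 after 50 mg/kg and 0.67, 1.01 and 1.36 after NaCl. Its log2 fold change was -1.33 after 25 mg/kg (edgeR adjusted p = 0.216) and -2.34 after 50 mg/kg (edgeR adjusted p = 0.056). Without 50 mg/kg replicate 3 the value after 50 mg/kg was -3.34 and past the threshold (edgeR adjusted p = 0.0321, between 0.0321 and 0.17 over the 19 alternatives that tested it). Tnfsf14, which encodes LIGHT, a ligand of Ltbr, had a log2 fold change of -0.68 after 25 mg/kg (edgeR adjusted p = 0.506). Ltb, lymphotoxin beta, had 1.39 after 50 mg/kg (edgeR adjusted p = 0.144), and 0.56 without 50 mg/kg replicate 3. The median log2 fold change of the 6 ligands was 0.01 after 25 mg/kg and 0.74 after 50 mg/kg.

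Of the 20 other receptors of the superfamily, 13 could be tested, and edgeR called 1 higher after each dose. DESeq2 called 2 higher after each dose, and limma-voom 1 after 25 mg/kg and 0 after 50 mg/kg. Tnfrsf13c, chosen after its values were seen, had the list's largest log2 fold changes, and edgeR did not call it. They were 3.29 after 25 mg/kg (edgeR adjusted p = 0.064) and 3.11 after 50 mg/kg (edgeR adjusted p = 0.0742). Its counts were 12, 5 and 33 after 25 mg/kg, 3, 19 and 16 after 50 mg/kg and 0, 1 and 4 after NaCl. Tnfrsf11b, which encodes osteoprotegerin, a secreted decoy receptor for RANK ligand and TRAIL, had 8.08, 7.25 and 13.0 CPM after 25 mg/kg, 8.32, 4.22 and 4.91 CPM after 50 mg/kg and 3.36, 4.24 and 4.07 CPM after NaCl. The 25 mg/kg libraries all lay above the NaCl libraries, and the 50 mg/kg libraries overlapped them. The log2 fold change was 1.28 after 25 mg/kg (SE 0.33, edgeR adjusted p = 0.031) and 0.58 after 50 mg/kg (edgeR adjusted p = 0.258). The call after 25 mg/kg was lost without any 1 of the NaCl libraries and without 25 mg/kg replicate 1 or replicate 3, and over the 20 alternatives its adjusted p lay between 0.00312 and 0.128.

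Tnfrsf23, a mouse decoy receptor for TRAIL, had 1.76, 1.40 and 1.79 CPM after 25 mg/kg, 2.79, 1.56 and 5.72 CPM after 50 mg/kg and 0.40, 0.86 and 1.41 CPM after NaCl. With Tnfrsf23 the log2 fold change was 1.89 after 50 mg/kg (SE 0.55, edgeR adjusted p = 0.0474) and 0.87 after 25 mg/kg (edgeR adjusted p = 0.338). The call after 50 mg/kg was lost in 16 of the 20 alternatives, among them each fit that left out an NaCl or a 25 mg/kg library and those without 50 mg/kg replicate 1 or replicate 3. Its close copies Tnfrsf22 and Tnfrsf26 could share reads with it, so these counts are uncertain. The median log2 fold change of the 13 other receptors was 0.14 after 25 mg/kg and 0.57 after 50 mg/kg.

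Of 21 genes for TRAF adaptors and the kinases that lead to NF-kB, 1 rose and 1 fell after 25 mg/kg. Ikbkg, which encodes NEMO, the scaffold of the kinase complex that releases NF-kB, had 146, 127 and 123 CPM after 25 mg/kg, 112, 80.7 and 113 CPM after 50 mg/kg and 85.4, 72.1 and 75.3 CPM after NaCl. All 25 mg/kg libraries lay above all NaCl libraries. For Ikbkg the log2 fold change was 0.77 after 25 mg/kg (SE 0.17, edgeR adjusted p = 0.0185) and 0.39 after 50 mg/kg (edgeR adjusted p = 0.145). Ikbkg shares 19712 bases with G6pdx on the opposite strand, which had log2 fold changes of 0.59 after 25 mg/kg (edgeR adjusted p = 0.165) and 1.04 after 50 mg/kg (edgeR adjusted p = 0.0272), and without a stated strand setting their reads cannot be told apart. Without NaCl replicate 2 or NaCl replicate 3, or without 25 mg/kg replicate 1 or replicate 3, the call of Ikbkg was lost, and its adjusted p over the 20 alternatives lay between 0.00104 and 0.0771.

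Traf3, an adaptor that holds back the kinase of the alternative NF-kB pathway, had 10.2, 8.31 and 9.10 CPM after 25 mg/kg, 13.9, 9.10 and 17.8 CPM after 50 mg/kg and 30.9, 17.0 and 18.8 CPM after NaCl. It fell after 25 mg/kg with a log2 fold change of -1.27 (SE 0.29, edgeR adjusted p = 0.0213), and after 50 mg/kg the value was -0.71 (edgeR adjusted p = 0.125). Only 1 of the 50 mg/kg libraries reached the NaCl range. Without NaCl replicate 1, the highest library, or without any 1 of the 25 mg/kg libraries the call was lost, with adjusted p between 0.00109 and 0.079 over the alternatives. After 50 mg/kg, edgeR called 0 of the 21, limma-voom 0 and DESeq2 1, with 5 at an unadjusted p under 0.05. The lowest p then belonged to Tab2 (log2 fold change -0.58, edgeR adjusted p = 0.0923) and Map3k7 (-0.47, edgeR adjusted p = 0.0967), partners in the kinase complex that acts on the NF-kB kinases. The list's median log2 fold change was -0.22 after 25 mg/kg and 0.02 after 50 mg/kg.

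Of 14 genes of death domain signalling, 1 rose after 25 mg/kg, and after 50 mg/kg edgeR, DESeq2 and limma-voom called 0, with 2 at an unadjusted p under 0.05. Diablo, a mitochondrial protein that blocks inhibitors of caspases, had only 17, 23 and 20 counts after 25 mg/kg, 13, 17 and 14 counts after 50 mg/kg and 2, 3 and 11 counts after NaCl. The retrorsine libraries all lay above the NaCl libraries. Diablo had a log2 fold change of 2.03 after 25 mg/kg (SE 0.56, edgeR adjusted p = 0.0399) and 1.70 after 50 mg/kg (edgeR adjusted p = 0.0701). The call was lost in 13 of the 20 alternatives, among them the fits without any 1 of the 25 mg/kg libraries and those without NaCl replicate 1 or replicate 2. A protein-coding model, Gm49027, overlaps Diablo on the same strand over 12095 bases, so its counts are uncertain. Madd, an adaptor at the death domain of Tnfrsf1a, had a log2 fold change of 0.55 after 50 mg/kg (edgeR adjusted p = 0.121). The list's median log2 fold change was 0.09 after 25 mg/kg and 0.25 after 50 mg/kg.

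Of 17 genes for NF-kB subunits and feedback regulators, Rela was the only call by edgeR, and it rose after both doses. Rela encodes p65, the subunit through which most of these receptors activate transcription. It had 271, 180.2 and 231 CPM after 25 mg/kg, 296, 213 and 428 CPM after 50 mg/kg and 152, 65.3 and 73.0 CPM after NaCl, with no overlap between retrorsine and NaCl libraries. The log2 fold change was 1.23 after 25 mg/kg (SE 0.36, edgeR adjusted p = 0.0481) and 1.69 after 50 mg/kg (SE 0.36, edgeR adjusted p = 0.0148). The call after 25 mg/kg was lost in 7 of the 20 alternatives, among them the fits without any 1 of the 25 mg/kg libraries or without NaCl replicate 2 or replicate 3, and that after 50 mg/kg in 2, without NaCl replicate 2 or replicate 3. Over the alternatives its adjusted p lay between 0.00609 and 0.159 after 25 mg/kg and between 7e-05 and 0.0651 after 50 mg/kg.

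Other settings called up to 3 of the 17. A fit of only the 2 groups compared called 3 after 25 mg/kg, 1 higher and 2 lower, and DESeq2 called 2, 1 higher and 1 lower. After 50 mg/kg, the fit without NaCl replicate 1 and 50 mg/kg replicate 2 called 3, all higher, and that without 50 mg/kg replicate 3 called 2, 1 higher and 1 lower. The median log2 fold change of the list was -1.01 after 25 mg/kg and 0.41 after 50 mg/kg, and its mean log2 CPM, centred per gene, was -0.06, -0.90 and -0.72 after 25 mg/kg, 0.13, -0.38 and 1.72 after 50 mg/kg and 1.23, -0.74 and -0.27 after NaCl. The highest values were those of 50 mg/kg replicate 3 and NaCl replicate 1. The feedback inhibitor Nfkbia, chosen after its values were seen, had 143, 55.1 and 58.8 CPM after 25 mg/kg, 118, 109.9 and 495 CPM after 50 mg/kg and 224, 50.1 and 60.1 CPM after NaCl, again highest in those libraries.

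The genes whose levels were most like those of Tnfrsf12a over the 9 libraries were Zbtb21 (Pearson r = 0.995), Ncdn (0.989), Srsf6 (0.985), Frmd4b (0.984) and Fam53c (0.984), of 11426 genes compared. The libraries fall into retrorsine and NaCl clusters and share depth and scaling, so these coefficients are a description of that split. Zbtb21 averaged 138 ± 23.0 CPM after 25 mg/kg, 130.1 ± 29.0 CPM after 50 mg/kg and 22.6 ± 6.77 CPM after NaCl (SD, n = 3 each). Ncdn averaged 105 ± 21.1 CPM after 25 mg/kg, 110.1 ± 22.5 CPM after 50 mg/kg and 19.5 ± 2.14 CPM after NaCl. For Zbtb21, as for Tnfrsf12a, 50 mg/kg replicate 3 was the lowest retrorsine library. The log2 fold changes were smaller than those of Tnfrsf12a, 2.61 and 2.52 for Zbtb21, 2.43 and 2.50 for Ncdn, and 0.66 and 0.64 for Srsf6, in each case after 25 mg/kg and after 50 mg/kg. Among the receptors the coefficient with Tnfrsf12a was 0.752 for Tnfrsf1b and -0.873 for Ltbr, and between -0.38 and 0.43 for the others.

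**Figure D5:**
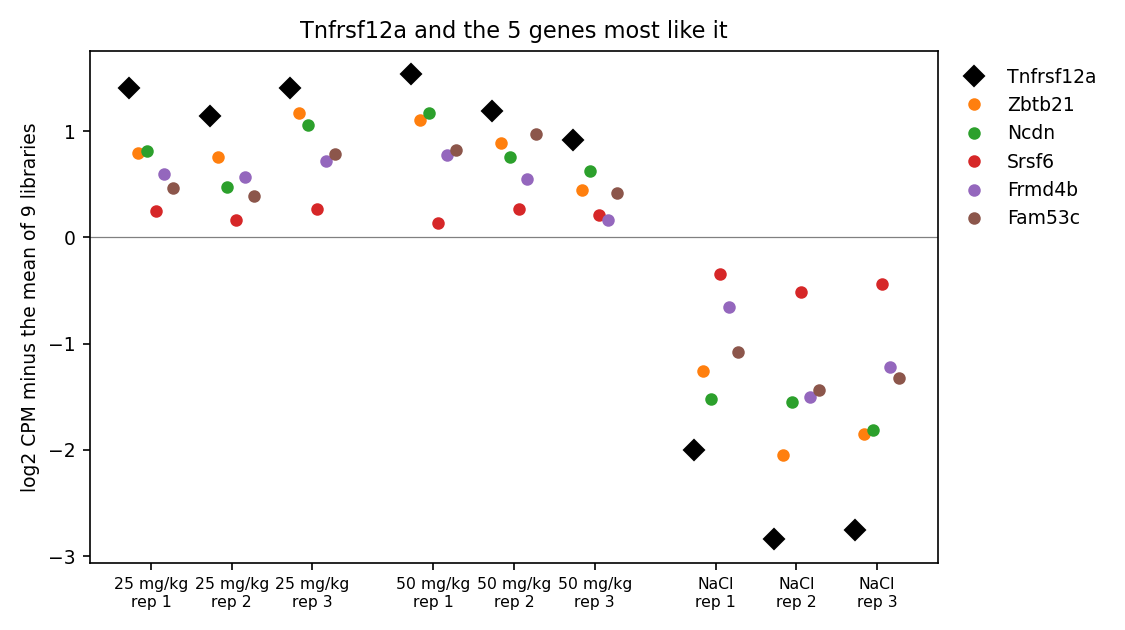
Log2 CPM minus the mean of the 9 libraries (vertical axis) for Tnfrsf12a (diamonds) and the 5 genes most like it (circles), by library, after 25 mg/kg retrorsine, 50 mg/kg retrorsine and NaCl. Tnfrsf12a lies between 0.92 and 1.54 in the retrorsine libraries and between -2.84 and -2.0 in the NaCl libraries.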

How the data were processed

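Poly(A) RNA-seq libraries of WT mouse liver were analysed, 3 in each of 3 groups by the labels. The deposited table holds the authors' read counts per gene, whole and not normalized, and per the file headers FPKM, which are the authors' own and served only to compare genes per length. The submitters' processing notes name HISAT2 and GRCm38; the sources used here do not give the counting tool, annotation release or strand setting. Gene spans and overlaps come from GENCODE mouse release 21, and promoters from RefSeq (GRCm38.p6).

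Counts (15241261 to 18691736 per library) were filtered with filterByExpr, scaled with TMM and fitted in edgeR 4.0.16 (R 4.3.3) with 1 mean per group over all 9 libraries and 6 residual degrees of freedom. The quasi-likelihood F test was adjusted by Benjamini-Hochberg over 12557 genes with a threshold of 0.05. SE were taken as the size of the log2 fold change divided by the root of the F statistic. Log2 CPM used a prior count of 2. The procedure was tested on simulated data. Any 2 libraries of a group differed by more than sampling noise (mean chi-square of at least 41.2 per gene). None was thus a plain repeat of another, and each was counted. This comparison cannot tell separate mice from separate preparations of 1 liver.

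The members and lists were chosen with earlier results of these data known. Named were the 8 receptors, Tnfsf12, per list and comparison against NaCl up to 6 genes past the threshold or else the 2 with the lowest p, and the 5 genes most correlated with Tnfrsf12a among genes with a mean of at least 1 CPM. The 20 alternatives were other scalings, filters and tests (DESeq2 1.42.0, limma-voom with limma 3.58.1), fits restricted to 2 groups, the replicate number as a block, and fits without single libraries or without 2 that stood apart.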

Additional observations from a re-analysis of the deposited data

How the results depend on the processing

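The calls of Ltbr were lost in 9 of 20 after 25 mg/kg and in 11 of 20 after 50 mg/kg, and that of Tnfrsf1b after 50 mg/kg in 2. The sign of Fas after 50 mg/kg turned in 6. Few reads limit Cd40, Tnfrsf10b, Diablo, Eda and Tnfsf12, and 3 libraries per group limit every SE.

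Over all genes, leaving out 1 library gave 626 to 1850 genes changed after 25 mg/kg (1690 with all), 700 to 1921 after 50 mg/kg (1896 with all) and 0 to 3 between the doses (1 with all). For the pathway genes it gave 0 to 6 after 25 mg/kg (5 with all) and 0 to 3 after 50 mg/kg (2 with all). Without NaCl replicate 1 and 50 mg/kg replicate 2, there were 975 genes after 25 mg/kg, 653 after 50 mg/kg, 0 between the doses and 3 pathway genes after 25 mg/kg. Without NaCl replicate 1 and 50 mg/kg replicate 3, there were 1146 genes after 50 mg/kg, 4 between the doses and 4 pathway genes after 50 mg/kg. DESeq2 called 71 genes between the doses and 5 pathway genes after 50 mg/kg, upper quartile scaling, no filter and only the 2 groups compared called 1 pathway gene each after 50 mg/kg, and library totals and only the 2 groups compared called 0 genes between the doses. The cause of these differences was not tested. The fits that left out libraries or a group also used fewer samples. With library totals, 35.5% of the calls after 50 mg/kg were higher, against 46.9% with TMM.

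The replicate numbers are not stated to pair the samples, and the deviations of same-numbered libraries correlated at 0.105, 0.0451 and -0.0171 between 25 mg/kg and NaCl and at -0.23, 0.136 and -0.0729 between 50 mg/kg and NaCl, so the numbers were not taken as pairs. With the replicate number as a block, 1108 genes were called after 25 mg/kg, 1229 after 50 mg/kg and 0 between the doses, with 3 pathway genes after 25 mg/kg and 1 after 50 mg/kg. Ltbr was then called at neither dose, as also without a filter, and Tnfrsf1b was called after 25 mg/kg in no other alternative.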
